A study of Mus musculus with 9 samples.

Results

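The olfactory bulb of mice killed after 30 min of odor was compared with that of mice kept in clean air. The 6 libraries were those of the 3 clean air mice and the 3 mice of the 30 min group, out of 9 libraries in the whole study. All mice were adult C57/BL6 animals, 6 to 8 weeks old or older. Clean air mice breathed air passed through an activated carbon filter. The 30 min mice breathed a cocktail of odorants and were killed when the 30 min ended. The remaining 3 mice had 30 min of the same cocktail and then 90 min of clean air. They entered the statistical fit, and their means are given beside a few genes. Polyadenylated RNA of the whole bulb was sequenced from paired ends, so each value mixes all the cell types of the bulb, and fewer cells of a type cannot be told apart from less RNA per cell. Levels are RPKM, the deposited read counts scaled by gene length and library size.

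The comparison covered the 12780 genes that averaged 1 RPKM or more across the 9 libraries. Differences are on the scale log2(RPKM + 0.5), 30 min minus clean air, and understate the change of low genes. A gene was called at an adjusted p under 0.05 (limma, Benjamini-Hochberg over all 12780 genes, two-sided). The depth, recovered from the steps between low RPKM values, ran from 8.77 to 29.7 megareads in the 6 libraries, and 3 counts on a 1 kb transcript corresponded to 0.101 to 0.342 RPKM. Pairs of the 6 libraries correlated at 0.936 to 0.969 across genes, which are not independent replicates. Genes that define the bulb were present in every library: Omp of the sensory neuron axons at 79.9 to 113 RPKM, Th of dopaminergic periglomerular cells at 157 to 220, Tbx21 of mitral and tufted cells at 15.7 to 20.6, and Gad1 of inhibitory interneurons at 280 to 470.

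Odorants bind receptors on sensory neurons of the nose, whose axons release glutamate onto mitral, tufted and periglomerular cells in the glomeruli of the bulb. Firing of these cells lets calcium in and raises cyclic AMP, and the kinases this activates phosphorylate transcription factors already bound to DNA, among them CREB at the cyclic AMP response element and the ternary complex factors that work with SRF at CArG boxes. The genes switched on in this way without new protein synthesis are called immediate-early genes, and many encode transcription factors, phosphatases that quench MAP kinases, or synaptic proteins. The known genes of this kind form a small part of the transcriptome. The rest of it was therefore described at 4 levels: called genes, uncalled genes with the smallest p, gene lists, and all tested genes.

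The DNA just upstream of the start site shows which of the genes with separated groups carry, within that stretch, the elements that these signals act through. The sequences below are the 250 bases before the start, 5′ to 3′ on the gene's own strand, from RefSeq on build GRCm38.p6. Capitals mark the full cyclic AMP response element TGACGTCA, its core TGACG on either strand (CGTCA where it lies on the other strand), and, in Dusp5, CArG boxes. Btg2 and Dusp1 were called genes with the full element, Plk2 an uncalled gene with it, and Npas4, Fos and Nr4a1 called genes with 2 or more separate cores.
Btg2, chr1:134079156-134079405, minus strand: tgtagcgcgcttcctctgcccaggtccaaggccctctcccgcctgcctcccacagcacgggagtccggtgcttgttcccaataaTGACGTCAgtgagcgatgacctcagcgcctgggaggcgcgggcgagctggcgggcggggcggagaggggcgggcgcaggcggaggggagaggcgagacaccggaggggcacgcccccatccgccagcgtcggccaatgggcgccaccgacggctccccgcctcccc
Dusp1, chr17:26508473-26508722, minus strand: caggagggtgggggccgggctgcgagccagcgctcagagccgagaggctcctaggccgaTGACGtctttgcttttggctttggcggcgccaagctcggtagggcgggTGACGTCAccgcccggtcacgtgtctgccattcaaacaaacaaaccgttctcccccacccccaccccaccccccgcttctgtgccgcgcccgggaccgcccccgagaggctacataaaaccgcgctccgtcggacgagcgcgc
Plk2, chr13:110394794-110395043, plus strand: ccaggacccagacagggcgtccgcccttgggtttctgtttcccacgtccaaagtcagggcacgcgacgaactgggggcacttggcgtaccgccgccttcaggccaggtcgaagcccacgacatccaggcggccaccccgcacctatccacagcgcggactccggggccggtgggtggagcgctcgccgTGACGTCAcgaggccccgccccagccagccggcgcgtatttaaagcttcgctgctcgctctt
Npas4, chr19:4989972-4990221, minus strand: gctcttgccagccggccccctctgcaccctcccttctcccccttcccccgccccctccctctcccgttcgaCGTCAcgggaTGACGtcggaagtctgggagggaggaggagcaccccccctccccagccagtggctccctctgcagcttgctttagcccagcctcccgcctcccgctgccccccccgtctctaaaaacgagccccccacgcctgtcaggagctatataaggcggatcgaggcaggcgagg
Fos, chr12:85473640-85473889, plus strand: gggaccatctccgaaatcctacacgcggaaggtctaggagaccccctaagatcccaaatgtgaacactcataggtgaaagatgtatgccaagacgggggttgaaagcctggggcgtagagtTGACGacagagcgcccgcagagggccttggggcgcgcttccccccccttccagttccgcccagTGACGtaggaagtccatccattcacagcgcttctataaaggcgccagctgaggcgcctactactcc
Nr4a1, chr15:101266596-101266845, plus strand: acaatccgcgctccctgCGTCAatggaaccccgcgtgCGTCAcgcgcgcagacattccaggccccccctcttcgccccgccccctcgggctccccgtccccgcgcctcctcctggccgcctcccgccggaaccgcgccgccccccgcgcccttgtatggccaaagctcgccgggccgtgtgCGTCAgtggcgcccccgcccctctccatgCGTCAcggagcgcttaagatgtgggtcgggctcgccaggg
Dusp5, chr19:53528895-53529144, plus strand: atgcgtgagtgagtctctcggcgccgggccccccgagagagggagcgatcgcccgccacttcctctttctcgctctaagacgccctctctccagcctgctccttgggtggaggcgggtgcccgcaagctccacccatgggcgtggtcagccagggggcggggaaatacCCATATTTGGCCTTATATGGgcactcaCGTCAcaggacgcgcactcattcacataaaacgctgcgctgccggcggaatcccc
The full element began 166 bases before the start in Btg2, 143 in Dusp1 and 62 in Plk2, and each full element holds the core on both strands. Npas4 held cores at 179 and 169 bases, Fos at 129 and 66, and Nr4a1 at 233, 213, 69 and 40. Dusp5 held 2 CArG boxes that abut, at 82 and 72 bases before the start, and a core at 55.

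Both strands of the 300-base windows of the RefSeq table, which add the 50 bases after the start, were searched for these letters in every gene with a window. Windows were found for 9440 of the 12780 tested genes and for 13 of the 17 genes called higher, the exceptions being Arc, Egr1, Egr3 and Ier2. The core TGACG lay in 12 of those 13 windows, Dusp6 being the exception, in 35.5% of the tested genes and in 20.8% of all 32851 windows of the table. The full element lay in 2 of the 13, in 3.51% of the tested genes and in 1.79% of all windows. No CArG box lay in the 13, against 1.55% of the tested genes and 1.63% of all windows. Boxes farther upstream, and those of the called genes without a window, were not searched. No AP-1 site, searched as TGANTCA, lay in the 13 either, against 5.9% of the tested genes and 7.81% of all windows. Among the 12 uncalled genes above clean air that are described further on, 9 had a window, of which 1 (Plk2) held the full element, 3 the core and 1 (Dusp5) a CArG box. Among the 12 below clean air 9 had a window, of which 1 (Csf2ra) held the full element, 2 the core and 1 (Hes5) a CArG box, so these letters were not limited to genes above clean air. Of the uncalled genes above clean air with an unadjusted p under 0.05 (limma), 321 had a window, and 36.8% of these held the core. Below clean air at that p, 199 genes had a window and 28.6% held the core, against 35.5% of the tested genes. The sets of called and of 12 uncalled genes are small, so a comparison of each set as a whole is void. All these shares are descriptions of letters in short windows.

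After 30 min of odor 17 genes rose and 1 fell among the 12780 tested. The risers were transcription factors of the AP-1, Egr and Nr4a families, Npas4, Atf3 and the early nuclear protein Ier2, together with the antiproliferative cofactor Btg2, the synaptic protein Arc, the MAP kinase phosphatases Dusp1 and Dusp6, and the secreted matrix protein Cyr61. Rises ran from 2.18-fold for Dusp6 to 23.1-fold for Fos on the log2(RPKM + 0.5) scale. The gene that fell, AK036329, is named only by its cDNA clone. Called genes made up 0.141% of those tested, 0.133% in the upward and 0.00782% in the downward direction (limma).

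The best separated gene relative to its spread was Btg2, a cofactor of the deadenylase complex that shortens mRNA tails. It measured 5.47, 4.86 and 6.06 RPKM in clean air mice 1, 2 and 3, and 40.95, 33.22 and 42.44 at 30 min. Each 30 min mouse lay more than 5-fold above every clean air mouse, and the groups were far apart. The log2 difference was 2.72 ± 0.17 (SE, n = 3 mice per group; limma adjusted p = 6.69e-05). Npas4, a transcription factor that is restricted to neurons and answers to calcium, measured 5.52, 7.21 and 8.3 RPKM in clean air against 66.1, 53.74 and 62.9 with odor, with a log2 difference of 3.04 ± 0.20. Both averaged inside their clean air range at 120 min, where Btg2 averaged 5.84 ± 0.579 and Npas4 6.07 ± 1.09 RPKM (SD, n = 3).

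Fos, the AP-1 subunit used most often as a mark of active neurons, had the largest difference. Clean air mice measured 4.73, 4.04 and 12.1 RPKM and 30 min mice 170.8, 131.39 and 163.68, for a log2 difference of 4.53 ± 0.33 (limma adjusted p = 0.000165). Clean air mouse 3 lay well above the other clean air mice, yet far below every exposed mouse. The same mouse was the highest of its group for Arc, which carries AMPA receptors away from synapses: clean air mice measured 15.11, 21.03 and 39.99 RPKM and 30 min mice 246.81, 272.53 and 336.19. Egr1, a zinc finger factor, read 21.24, 22.29 and 67.52 RPKM in clean air mice and 294.1, 306.32 and 319.96 in exposed mice. Nr4a1, an orphan nuclear receptor, stood at 18.12, 22.94 and 75.54 RPKM without odor and at 240.47, 278.08 and 249.18 with it. For both, the exposed mice lay close together and the clean air mice spread more than 3-fold.

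That pattern held for most of the genes that rose. Clean air mouse 3 was the highest of its group for 14 of the 17, while it was the highest for 28.6% of all tested genes. The SD over log2 values was larger in clean air than at 30 min for 12 of the 17, with a median of 0.42 in clean air and 0.19 at 30 min. Over all tested genes the median SDs were 0.30 and 0.21. Among the exposed mice, mouse 2 was the lowest for 9 of the 17 genes, and mouse 1 the highest for 8.

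The fate of the 17 genes at 120 min differed between members. The 120 min mean lay below the lowest 30 min mouse for 14 of them and above the highest clean air mouse for 8. Egr3, a zinc finger factor, had 12.58, 21.15 and 26.58 RPKM in the clean air group and 69.21, 66.33 and 56.4 in the 30 min group, and averaged 99.5 ± 10.4 at 120 min. The orphan receptor Nr4a2 measured 9.85, 7.53 and 9.28 RPKM in clean air, 27.57, 29.4 and 25.98 at 30 min, and averaged 26.0 ± 5.13 later. Its relative Nr4a3 measured 1.49, 2.06 and 2.39 RPKM in clean air, 7.48, 10.88 and 7.45 at 30 min, and averaged 8.57 ± 0.834 later. These were the 3 members whose later mean was not below the 30 min mice.

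**Figure D1:**
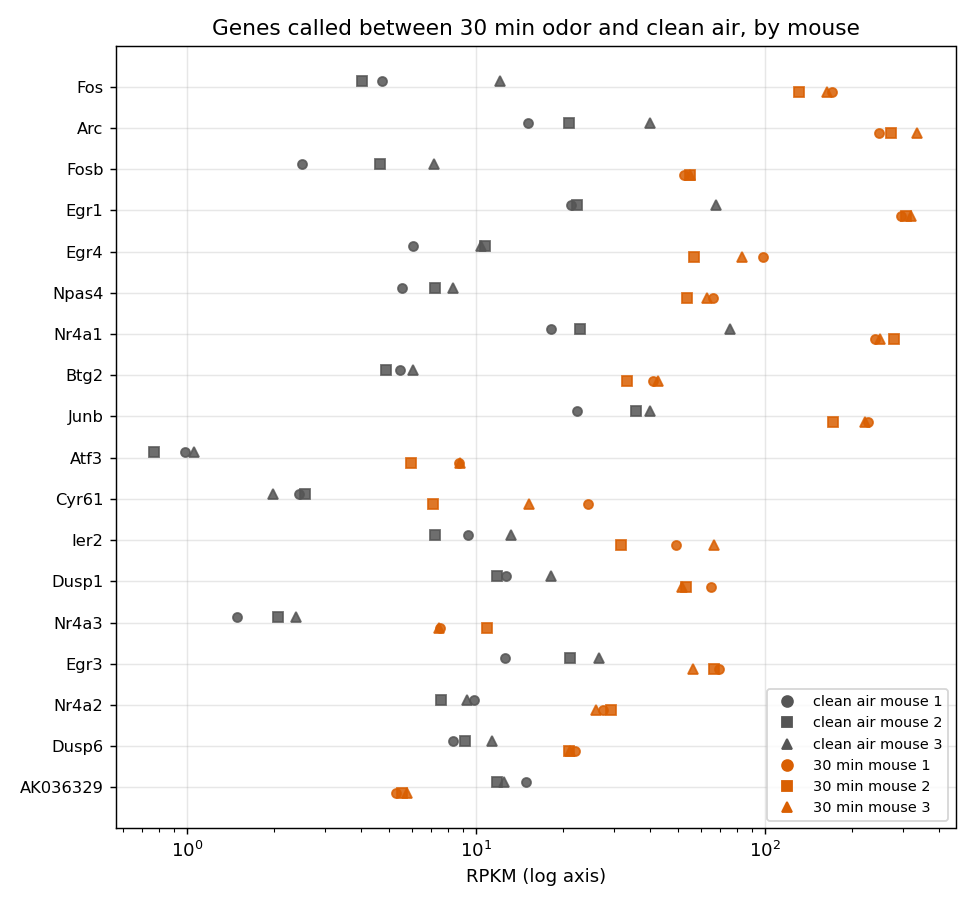
RPKM (log axis) of the 18 called genes in each clean air mouse (grey) and each 30 min mouse (orange), 1 marker shape per mouse number, ordered from the largest rise to the fall. For the 17 genes that rose no clean air marker reaches an orange marker, and the grey triangle of clean air mouse 3 is the rightmost grey marker in 14 of them.

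Of the 18 calls, 12 stood when any 1 of the 9 mice was left out and 6 did not. Ier2 was lost without clean air mouse 1 (limma adjusted p = 0.0611). Nr4a1 was lost in 5 of the 6 ways of leaving out an exposed or clean air mouse, the exception being clean air mouse 3, with adjusted p up to 0.0952, and Dusp6 was lost in the same 5, with adjusted p up to 0.159. Egr3 was lost without clean air mouse 2 or any exposed mouse (up to 0.114). Cyr61 measured 2.43, 2.56 and 1.98 RPKM in clean air against 24.32, 7.1 and 15.26 with odor: its exposed mice spread more than 3-fold, and the call ended in every omission except that of 30 min mouse 2 (up to 0.281) and with the mouse number as a block (0.0992). AK036329 read 14.85, 11.84 and 12.44 RPKM in clean air mice and 5.3, 5.56 and 5.75 in exposed mice, and its log2 difference was -1.16 ± 0.17 (adjusted p = 0.0275). The groups were well apart, but the call ended when any 1 mouse of either group, or 120 min mouse 3, was left out (up to 0.171), and after a correction for GC content and length (0.559). Its sequence was 63.4% GC. The 17 genes that rose were all called after that correction, with log2 differences of 1.08 to 4.53.

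Among the uncalled genes was a tier in which all 3 exposed mice were on the same side of all 3 clean air mice. The 12 of these with the smallest p in each direction, among named genes that averaged 2 RPKM or more, had adjusted p of 0.0619 to 0.407 upward and 0.0689 to 0.597 downward (limma). Those above clean air included relatives of the called genes: the AP-1 subunit Fosl2, the phosphatase Dusp5, the kinases Snf1lk and Plk2, and the transcription factors Nfil3 and Bhlhb2. They also included genes with no place among the usual early genes, such as the RNA-binding protein gene Qk. The log2 differences upward were 0.67 to 1.51. Nonoverlapping groups were found in 932 genes upward (7.29%) and 522 downward (4.08%), so separation alone was common.

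Dusp5, which dephosphorylates ERK in the nucleus, is the gene of the tier with the abutting CArG boxes shown above. It stood at 24.75, 23.98 and 29.12 RPKM without odor and at 47.1, 51.24 and 52.7 with it. The log2 difference was 0.95 ± 0.16 with adjusted p = 0.0789 (limma), 0.0320 with the mouse number as a block and 0.00586 after the GC and length correction. Fosl2 had 7.63, 8.09 and 16.64 RPKM in the clean air group and 31.49, 29.79 and 27.9 in the 30 min group, clean air mouse 3 again the highest of its group. Snf1lk, the salt-inducible kinase now called Sik1 that keeps the CREB coactivators CRTC in the cytoplasm, measured 12.13, 11.72 and 19.45 RPKM in clean air against 30.15, 29.68 and 29.1 with odor. Both were called after the GC and length correction, at an adjusted p of 0.0429, and without clean air mouse 3, at 0.000245 for Fosl2 and 0.00737 for Snf1lk, when only 2 clean air mice are left.

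Other members of this tier differed from the called genes in what they encode. Plk2, a polo-like kinase of synapses that carries the full cyclic AMP response element, read 15.66, 17.54 and 21.51 RPKM in clean air mice and 29.9, 37.71 and 38.41 in exposed mice. Zfp652, a zinc finger gene, stood at 6.83, 5.72 and 4.25 RPKM without odor and at 13.66, 12.21 and 10.28 with it. Its mice ranked alike by number in both groups, and it passed with the block (adjusted p = 0.0229) while it did not without it (0.312), nor with the block after the GC and length correction (0.0943). Qk, which controls splicing and transport of myelin mRNAs, was the most abundant of the 12: it had 84.53, 70.18 and 65.02 RPKM in the clean air group and 112.09, 157.19 and 150.75 in the 30 min group, and averaged 142 ± 28.2 at 120 min. The later mean stayed inside the range of the 30 min mice.

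Nfil3 and Bhlhb2 (Bhlhe40) are repressors of clock-controlled genes. Nfil3 read 10.81, 10.46 and 9.16 RPKM in clean air mice and 21.48, 16.6 and 16.04 in exposed mice. Bhlhb2 stood at 27.58, 27.98 and 25.16 RPKM without odor and at 38.6, 45.39 and 45.18 with it. In both the exposed mice lay clear of the clean air mice, which were close together. Tnfaip6, a secreted hyaluronan-binding protein, had 2.66, 2.14 and 2.3 RPKM in the clean air group and 5.58, 4.97 and 5.6 in the 30 min group. Sertad3, a small transcriptional cofactor, measured 1.29, 1.36 and 1.84 RPKM in clean air against 3.97, 2.73 and 4.02 with odor. The exposed groups did not overlap the clean air groups in these 4 genes, and none of them was called (limma adjusted p 0.349 to 0.407). After the GC and length correction all 12 genes above clean air still had separated groups, with log2 differences of 0.63 to 1.44.

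The 12 genes below clean air with the smallest p were of another kind. Leng8 read 130.85, 161.51 and 162.45 RPKM in clean air mice and 102.63, 88.69 and 88.67 in exposed mice, with a log2 difference of -0.69 ± 0.15, and averaged 96.3 ± 6.89 at 120 min. Hes5, a repressor switched on by Notch in neural progenitors and glia, stood at 27.92, 39.7 and 29.74 RPKM without odor and at 18.6, 17.56 and 19.42 with it, and averaged 31.8 ± 4.22 later, inside its clean air range. Tle2, a Groucho corepressor that Hes proteins recruit, had 35.54, 42.42 and 43.94 RPKM in the clean air group and 28.04, 16.26 and 23 in the 30 min group. The groups of each did not overlap, and none was called (limma adjusted p 0.373 to 0.418). The wider list of Notch target genes did not share the difference of Hes5: 8 of its 15 tested members were above clean air, with a median log2 difference of 0.00, and Hes5 was its only member with an unadjusted p under 0.05.

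The other uncalled genes below clean air were Rnaseh2c, a subunit of RNase H2, Gipr, the receptor of the gut hormone GIP, the cell cycle gene Rprm, the crystallin gene Crybb1, Runx2os1, the cytokine receptor subunit Csf2ra, the monocarboxylate transporter family gene Slc16a11, the mTOR regulator Akt1s1, and Gm23880, an annotated RNA of 54 nt. Rprm measured 39.34, 40.75 and 48.4 RPKM in clean air against 29.34, 26.45 and 28.85 with odor. Gipr read 8.9, 9.31 and 8.26 RPKM in clean air mice and 5.69, 5.11 and 5.45 in exposed mice. Gm23880 rested on about 1, 5 and 4 reads in clean air and 0, 1 and 0 at 30 min, and it passed with the mouse number as a block (adjusted p = 0.0269). The transcripts of these 12 genes were 56.1% to 66.7% GC, with a median of 59.9%, while those of the 12 above clean air were 41.1% to 56.7% GC, with a median of 50.3%. After the GC and length correction the 12 still had separated groups, with log2 differences of -2.57 to -0.48, and none was called.

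**Figure D2:**
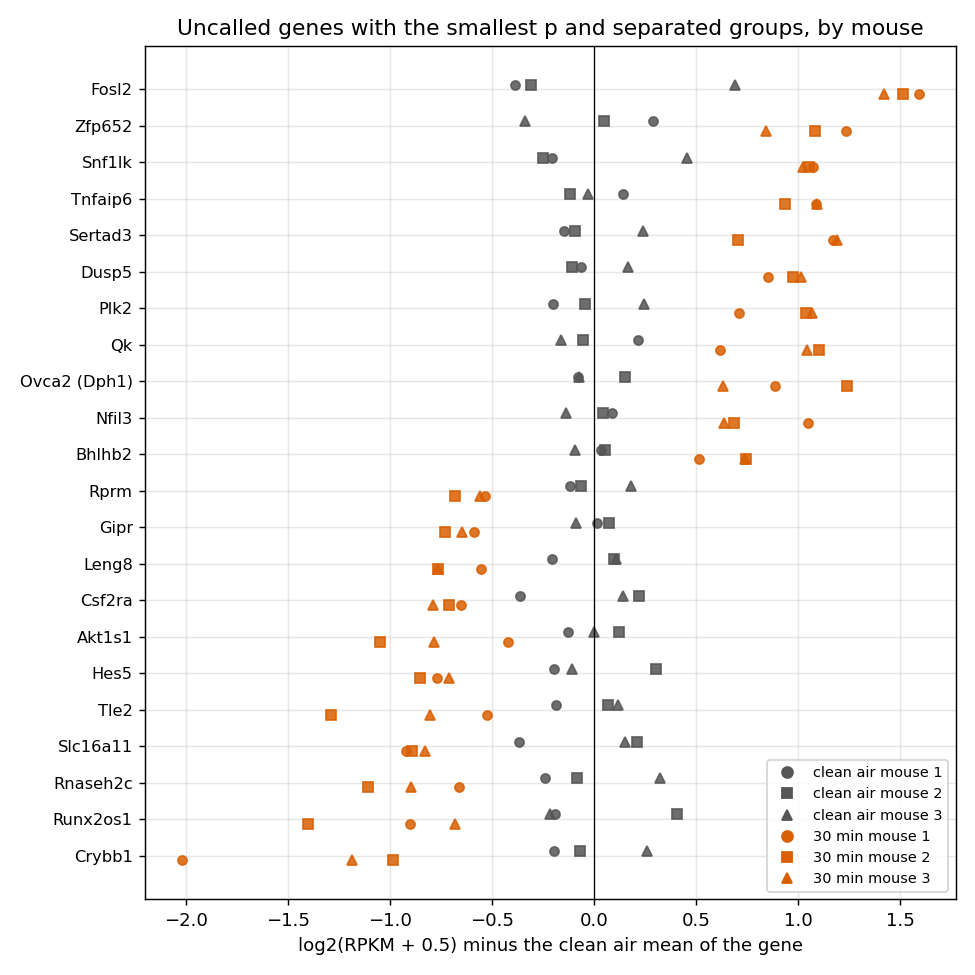
Uncalled genes with the smallest p and separated groups, by mouse: log2(RPKM + 0.5) minus the gene's clean air mean, for 11 of the 12 genes above clean air and 11 of the 12 below it (Gm23880, which has zeros, is not drawn). Grey markers are clean air mice and orange markers 30 min mice, with 1 shape per mouse number, and in every row the colours do not overlap.

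Across the transcriptome, more genes lay above clean air than below it, by small amounts. Of the 12780 tested genes 7901 (61.8%) had a positive log2 difference, and the median difference was 0.08. An unadjusted p under 0.05 was reached by 462 genes upward (3.62%) and 294 downward (2.3%), 756 in all (5.92%), where 639 would be reached with no difference in any gene. The total rested on single mice: it was 391, below that number, without 30 min mouse 2, and 1268 without clean air mouse 1. The direction of this balance depended on the scaling: with each library centred on its median the counts were 268 upward and 480 downward, and with quantile normalization 313 and 459. The split of separated genes moved likewise, from 932 upward and 522 downward as deposited to 577 and 807 with centring and 648 and 733 with quantile normalization. When the mouse number was added as a block, 1396 genes reached an unadjusted p under 0.05, 893 of them upward, and 22 genes were called. Mouse numbers are those of the sample titles, and no label says that they mark a shared litter, day or batch.

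The uncalled genes with an unadjusted p under 0.05 differed from the called genes in size and composition. The 17 genes that rose were compact, with a median span of 5.16 kb from start to end, and 12 of them lay in the shortest quintile of spans, up to 7.855 kb. The 445 uncalled genes above clean air with an unadjusted p under 0.05 had a median span of 68.6 kb and transcripts of 46.9% GC. The 294 below clean air had a median span of 10.5 kb and transcripts of 58.0% GC. All tested genes had a median span of 24.7 kb and 50.4% GC. Upward differences were thus commonest in long, AT-rich genes outside the called set, and downward differences in short, GC-rich genes.

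Genes sorted into quintiles by transcript GC content showed this as a gradient. In the quintile with the lowest GC, up to 44.5%, 119 genes were above and 8 below clean air at an unadjusted p under 0.05, and the median log2 difference was 0.17. In the quintile with the highest GC, from 56.1%, 17 were above and 165 below, and the median was -0.11. By transcript length the shortest quintile held 37 above and 91 below, and the longest 227 above and 27 below.

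The mice themselves differed in these properties within each group. The median log2 deviation of the lowest GC quintile minus that of the highest was -0.02, 0.35 and -0.33 in clean air mice 1, 2 and 3, and 0.08, 0.59 and 0.18 in the 30 min mice. The groups overlapped, and mouse number 2 was the highest in both. The longest length quintile minus the shortest gave 0.05, -0.12 and 0.07 in clean air and 0.17, 0.29 and 0.14 at 30 min, which did not overlap. When each library was corrected for GC content and length, over the 12132 genes with an annotated transcript, 418 genes (3.45%) were above clean air and 177 (1.46%) below at an unadjusted p under 0.05. The lowest GC quintile then held 86 above and 21 below, and the highest 92 and 53. Whether the gradients belong to the libraries or to the odor was not tested.

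**Figure D3:**
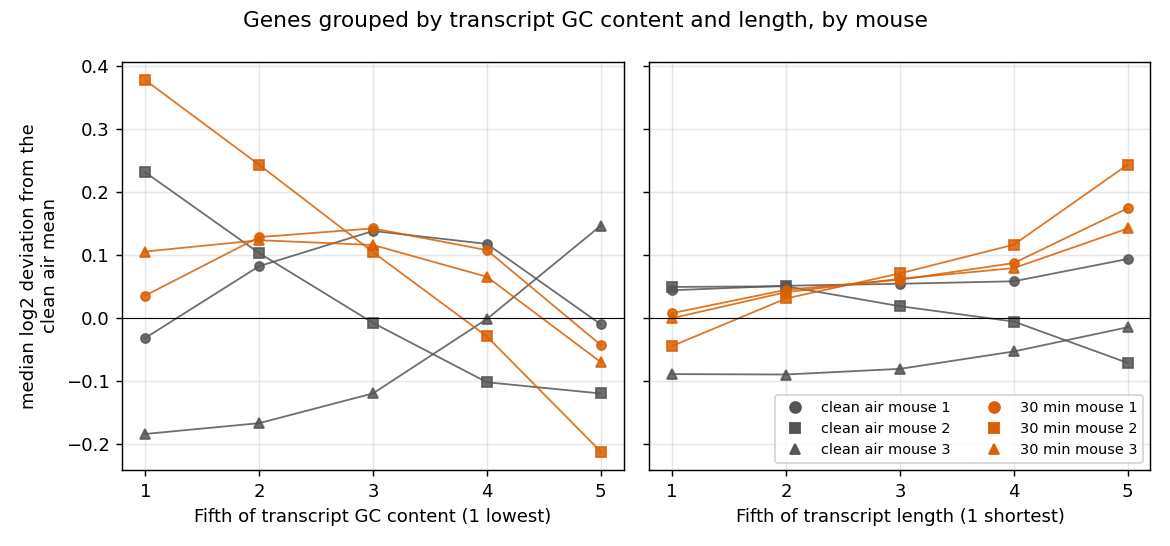
Median log2 deviation from the clean air mean of the genes in each quintile of transcript GC content (left, 1 lowest) and transcript length (right, 1 shortest), 1 line per mouse, grey for clean air and orange for 30 min. On the left the lines of both groups cross and overlap, from clean air mouse 3 that climbs to 30 min mouse 2 that drops, and on the right the 3 orange lines climb towards the longest transcripts.

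Gene lists were read against the same background. Of 100 lists of early response genes, signalling targets, metabolism, cell machinery, gene families and cell type markers, 98 had at least 5 tested members, and for each list the median of its members was taken in every mouse relative to that of all tested genes. In 6 lists all 3 exposed mice lay above all clean air mice, and in 5 below, with a list median at least 0.1 on the log2 scale from that of all tested genes. That limit was chosen after the values were seen. Separation of 3 mice from 3 also arises with no difference, and single genes had separated groups in 7.29% upward and 4.08% downward. The lists were written with earlier results of these data known, and no chance rate was computed for them. A list that stood apart is therefore a description only. Of all tested genes 0.133% were called upward and 3.62% had an unadjusted p under 0.05 upward (limma). The remaining 87 lists had medians of -0.08 to 0.40, and 58 of them lay above the median of all genes.

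The immediate-early transcription factors stood far from the other lists. Of 27 tested, 24 were above clean air, 21 had an unadjusted p under 0.05 and 13 were called, Btg2 being counted with them, and the median log2 difference was 1.51. Relative to all genes, the list lay at -0.13, 0.05 and 0.29 in clean air mice and 1.52, 1.43 and 1.35 in 30 min mice. The uncalled members above clean air included the Kruppel-like factors Klf4 (0.88 ± 0.26) and Klf10 (0.82 ± 0.24), and SRF itself (0.49 ± 0.19), which were picked out after their values were seen. Jund1 (JunD), the member with the highest mean RPKM over the 9 libraries, stood at 162.45, 306.05 and 233.13 RPKM without odor and at 205.56, 161.24 and 239.51 with it, with overlapping groups.

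The rapid response genes that are not transcription factors followed at a smaller size. Of 45 tested, 36 were above clean air, 20 had an unadjusted p under 0.05 upward and 1 downward, and 4 were called (Arc, Dusp1, Dusp6 and Cyr61). The median was 0.48, and the list lay at -0.07, -0.11 and 0.18 in clean air mice and 0.41, 0.50 and 0.33 in 30 min mice. The member with the highest mean over the 9 libraries, the small GTPase gene Rhob, had 259.25, 253.4 and 345.47 RPKM in the clean air group and 269.48, 208.99 and 287.22 in the 30 min group, with overlapping groups.

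The targets of CREB and its CRTC coactivators were nearly all above clean air, in 20 of 21 tested genes, with a median of 0.49 and 5 called. The list lay at -0.14, -0.15 and 0.17 in clean air mice and 0.48, 0.69 and 0.41 in 30 min mice. It shares 9 members with the early gene lists. Of the 12 others, 11 were above clean air with a median of 0.38, 3 had an unadjusted p under 0.05 and 0 were called. In all tested genes the median was 0.08, 61.8% were above clean air and 0.133% were called upward. Members of this list, too, were chosen with earlier results of these data known.

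MAP kinase feedback and ERK target genes, which include the Dusp phosphatases and the Sprouty and Spred inhibitors, had 14 of 18 tested members above clean air and a median of 0.30. Besides Dusp1, Dusp6 and Dusp5, Dusp14 measured 20.78, 13.92 and 12.16 RPKM in clean air against 35.04, 49.21 and 22.95 with odor, with a log2 difference of 1.14 ± 0.35. The list shares 7 members with the early gene lists, and the other 11 had a median of 0.12, near that of all genes. The distance of the list from all genes was 0.23, and it was 0.08 without clean air mouse 2. SRF and MRTF targets of the cytoskeleton had 21 of 23 tested members above clean air and a median of 0.25, but the mice of the groups overlapped, and the distance from all genes was 0.18, and 0.01 without clean air mouse 3.

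Of the 15 tested delayed activity-regulated genes, known to follow the early wave, 10 were above clean air, with a median of 0.17 and overlapping mouse medians. The groups of 3 members lay wholly above clean air, Tnfaip6 as given above, Pcsk1, and Sorcs3, named after its values were seen. Those of 1, Inhba, lay wholly below, and 0 were called. Over all tested genes the groups lay wholly above in 7.29% and wholly below in 4.08%. The distance from all genes was 0.09, and -0.01 without clean air mouse 2. Pcsk1, the convertase that processes prohormones, read 7.47, 7.11 and 5.51 RPKM in clean air mice and 8.22, 10.22 and 8.78 in exposed mice. The neuropeptide gene Vgf stood at 88.08, 152.55 and 140.94 RPKM without odor and at 127.05, 113.48 and 104.28 with it, inside the clean air range.

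Btg2 belongs to the BTG and Tob family, which ties mRNAs to the deadenylase complex, and the other members present differed less. Tob1 had 31.52, 31.56 and 28.1 RPKM in the clean air group and 41.64, 45.34 and 57.61 in the 30 min group, with a log2 difference of 0.64 ± 0.16 (limma adjusted p = 0.546) and no overlap. Tob2 measured 11.45, 9.97 and 19.91 RPKM in clean air against 21.54, 20.87 and 19.72 with odor, where clean air mouse 3 lay inside the exposed range. Btg1, named after its values were seen, read 25.38, 43.09 and 21.82 RPKM in clean air mice and 35.2, 19.08 and 32.02 in exposed mice, with overlapping groups.

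Metabotropic glutamate, GABA-B and muscarinic receptor genes formed the only neuronal list that stood apart by the limit used. Of 13 tested, 11 were above clean air, 0 were called and the median was 0.28, with the list at 0.07, -0.20 and 0.08 in clean air mice and 0.28, 0.35 and 0.12 in 30 min mice. Chrm3, a muscarinic receptor, stood at 5.78, 5.9 and 4.23 RPKM without odor and at 8.62, 8.26 and 6.37 with it. Grm5, a glutamate receptor, had 11.82, 7.5 and 9.67 RPKM in the clean air group and 14.58, 14.41 and 12.65 in the 30 min group. The groups of both were separate, by little. Over all settings the log2 differences were 0.52 to 0.83 for Chrm2 and 0.38 to 0.66 for Grm3, and neither was called in any. The list lay 0.20 from all genes, and 0.07 without clean air mouse 2.

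Synaptic vesicle and release genes were above clean air in 26 of 29 tested, with a median of 0.18, 5 at an unadjusted p under 0.05 and 0 called, and the mice of the groups overlapped. The distance from all genes was 0.10, and 0.05 without clean air mouse 2. Pclo, the active zone protein piccolo, measured 3.91, 2.39 and 5.69 RPKM in clean air against 5.87, 7.2 and 6.17 with odor. Rab3a, the most abundant member, read 562.31, 869.41 and 821.82 RPKM in clean air mice and 530.0, 898.31 and 864.85 in exposed mice, which overlapped throughout.

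Among nuclear receptors other than the Nr4a genes, both corticosteroid receptors were above clean air, and neither came near the threshold of a call in the main fit. Nr3c1, the glucocorticoid receptor, stood at 3.13, 2.85 and 3.98 RPKM without odor and at 5.02, 5.31 and 5.96 with it, with a log2 difference of 0.64 ± 0.21 (limma adjusted p = 0.749). Nr3c2, the mineralocorticoid receptor, was picked out after its values were seen. It had 7.74, 6.32 and 5.0 RPKM in the clean air group and 8.74, 12.16 and 9.14 in the 30 min group. Both had separate groups, as had 7.29% of all tested genes upward, and neither was called. Thra, the most abundant nuclear receptor on the list, had log2 differences of -0.04 to 0.32 over all settings and was not called in any. Glucocorticoid-responsive genes were split, with 13 of 22 tested above clean air, a median of 0.23 and overlapping mice. The distance from all genes was 0.16, and 0.02 without clean air mouse 2. Its members Per1 (31.84, 23.43 and 43.34 RPKM in clean air, 47.74, 66.55 and 52.27 at 30 min) and Nfkbia (19.39, 13.41 and 22.79, then 25.92, 28.61 and 30.87) are also known as rapid targets of neuronal activity. Mt1, the most abundant member, measured 2134.23, 953.09 and 617.85 RPKM in clean air against 1510.98, 1066.9 and 1184.42 with odor, with exposed mice inside the clean air range.

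Cholesterol synthesis genes, the targets of SREBP, were above clean air in 18 of 22 tested, with a median of 0.20 and 0 called. Hsd17b7 stood at 3.45, 1.99 and 4.06 RPKM without odor and at 5.0, 4.54 and 7.05 with it. The separation of the list was minimal: its mouse medians were 0.09, -0.04 and -0.10 in clean air and 0.09, 0.12 and 0.12 at 30 min, a gap of 0.00199. Its distance from all genes was 0.12, and 0.05 without clean air mouse 3.

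Below clean air, histone genes stood out as a list. Only 3 of the 20 tested were above clean air, the median was -0.19, and the list lay at -0.08, 0.13 and 0.03 in clean air mice and -0.34, -0.29 and -0.24 in 30 min mice. The polyadenylated replacement histone gene H3f3b had 264.49, 315.55 and 273.75 RPKM in the clean air group and 251.54, 231.41 and 216.98 in the 30 min group. H2afj measured 51.67, 81.25 and 111.33 RPKM in clean air against 43.14, 47.55 and 58.2 with odor, with clean air mouse 1 inside the exposed range. No histone gene was called, and 2 had an unadjusted p under 0.05. The distance from all genes was -0.27, and -0.17 after the GC and length correction, with the mice still apart.

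SR splicing factors and their kinases were also mostly below clean air, in all but 6 of 22 tested, with a median of -0.09. Sfrs11 read 52.39, 35.14 and 71.93 RPKM in clean air mice and 29.48, 34 and 33.28 in exposed mice, the groups just separate. The list lay at -0.15, 0.22 and -0.12 in clean air mice and -0.17, -0.23 and -0.24 in 30 min mice, so that clean air mouse 2 held most of the distance: it was -0.16 with that mouse and -0.01 without it. The hnRNP genes, which oppose SR factors at many exons, were above clean air in 6 of 18 tested, with a median of -0.08 and overlapping mice. Hnrnpa0 stood at 179.73, 191.05 and 247.23 RPKM without odor and at 163.38, 99.81 and 136.19 with it. These transcripts were not GC-rich: the median GC was 44.9% in the SR list and 43.9% in the hnRNP list.

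The nuclear-encoded genes of the respiratory chain and ATP synthase were the largest list set apart by function. Of 77 tested, 35 were above clean air (45.5%, against 61.8% of all genes), 0 had an unadjusted p under 0.05 upward and 5 downward, and 0 were called. The list lay at 0.00, -0.02 and 0.00 in clean air mice and -0.10, -0.14 and -0.16 in 30 min mice. Atp5j, a subunit of ATP synthase, had 89.34, 91.93 and 98.21 RPKM in the clean air group and 73.31, 67.39 and 60.09 in the 30 min group. Ndufb2, of complex I, measured 75.78, 109.67 and 82.29 RPKM in clean air against 65.79, 44.7 and 61.99 with odor. The member with the highest mean over the 9 libraries, Atp5b, read 812.31, 712.13 and 441.29 RPKM in clean air mice and 752.81, 702.11 and 745.94 in exposed mice, with overlapping groups. After the GC and length correction the mice of the list overlapped and its distance from all genes went from -0.12 to -0.09.

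The remaining lists below clean air were defined by name alone. Genes named Mir had a median of -0.21, with 19 of 48 tested above clean air, and predicted genes named Gm a median of -0.05, with 84 of 187 above. After the GC and length correction the mice overlapped in both, and the distance from all genes became -0.08 for Mir genes and 0.02, on the other side, for Gm genes. Interferon-stimulated genes stood apart only after that correction, with 13 of 19 tested above clean air and a median of 0.28 as deposited. Their distance from all genes was 0.20, 0.07 without 30 min mouse 1, and -0.17, on the other side, when only genes averaging 5 RPKM or more were kept. Irf1, their activator, stood at 4.69, 5.12 and 1.99 RPKM without odor and at 7.12, 5.54 and 7.21 with it.

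**Figure D4:**
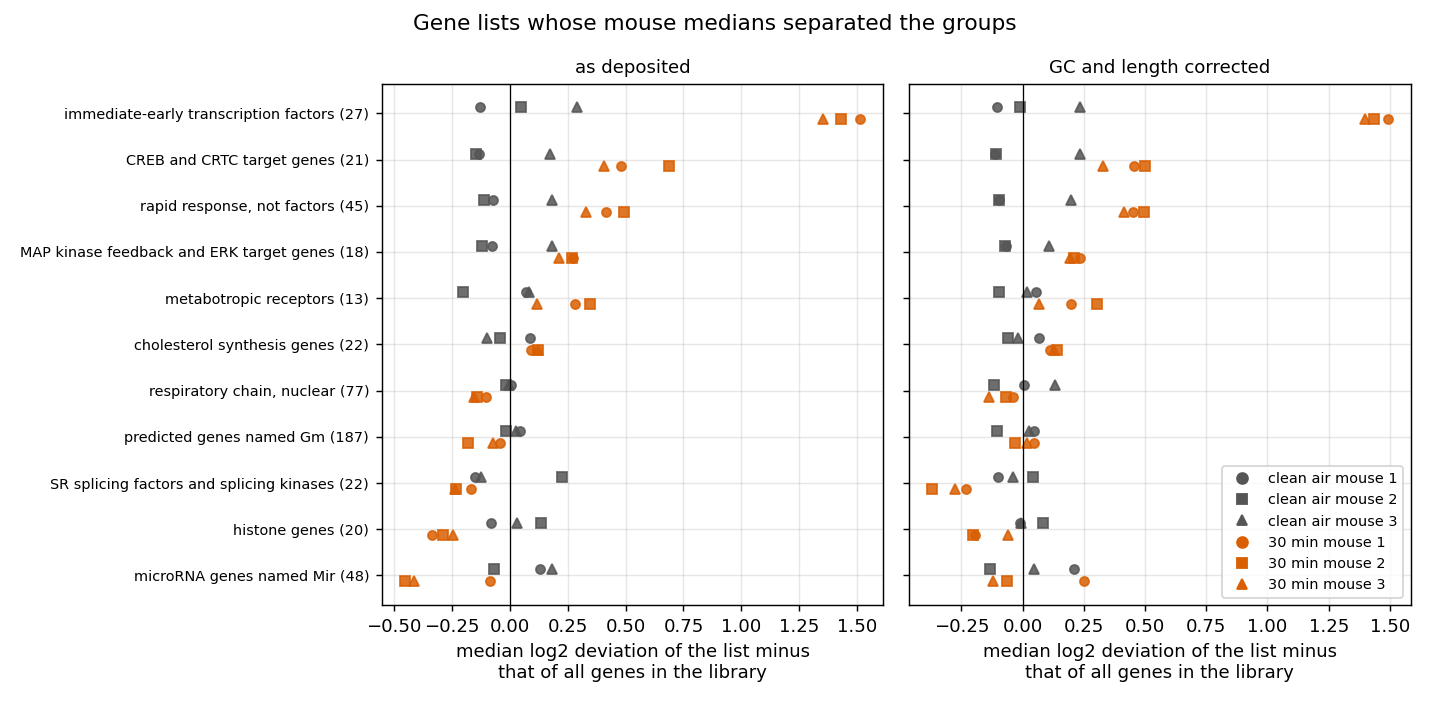
Median log2 deviation of the members of each of the 11 lists that stood apart minus that of all tested genes in the same library, as deposited (left) and after the GC and length correction (right), with the number of tested members in parentheses. Grey markers are clean air mice and orange markers 30 min mice, with 1 shape per mouse number. The immediate-early transcription factors lie at 1.35 to 1.52 in the exposed mice, and the other 10 lists drawn lie within 0.69 of 0.

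Among the genes named Mir, Mir132 went the other way. The hairpins of miR-212 and miR-132 lie next to each other on chromosome 11 inside the long RNA gene 1700016P03Rik, and a CREB-driven primary transcript of this locus is well known in neurons. Their mature 3p strands, from RefSeq on build GRCm38.p6, are shown because they share the seed, bases 2 to 8, in capitals.
miR-212-3p, chr11:75173443-75173464, plus strand: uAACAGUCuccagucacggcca
miR-132-3p, chr11:75173723-75173744, plus strand: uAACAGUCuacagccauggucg
The library was selected for poly(A) tails, which mature microRNAs lack, so the RPKM of these genes count reads over the 66 nt and 91 nt hairpin intervals and not the mature strands.

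Mir132 had 8.53, 5.38 and 8.49 RPKM in the clean air group and 27.07, 17.09 and 26.55 in the 30 min group. The groups were well apart and mouse 2 was the lowest of both. The values rested on about 2.8, 3.8 and 8.1 reads in clean air and 7.6, 15.7 and 14.7 at 30 min. The log2 difference was 1.59 ± 0.38, with limma adjusted p = 0.487, and 0.0246 with the mouse number as a block: the differences between mice of the same number were 1.61, 1.58 and 1.59. Over all alternatives the adjusted p ran from 0.00709 to 0.938. Mir212 measured 5.01, 1.58 and 21.72 RPKM in clean air against 15.91, 12.78 and 11.07 with odor, about 3, 2 and 36.8 reads against 8, 20.9 and 10.9. Clean air mouse 3 was the highest of the 6, and the groups overlapped.

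Downstream of the hairpins the strands of several genes meet. In GENCODE M21 on build GRCm38, 1700016P03Rik runs from 75172560 to 75177633 on the plus strand of chromosome 11, and Ovca2 from 75175942 to 75178835 on the minus strand, so that 1692 of the 2894 bases of Ovca2 lie under it. Ovca2, which the deposited table lists under the name Dph1, was among the 12 uncalled genes above clean air: it read 5.96, 7.07 and 5.99 RPKM in clean air mice and 12.11, 15.62 and 10.08 in exposed mice, and averaged 6.03 ± 0.691 at 120 min. Its log2 difference was 0.92 ± 0.19 (limma adjusted p = 0.312). Dph1 proper, at 75177643 to 75191241 on the minus strand, stood at 5.51, 5.31 and 4.98 RPKM without odor and at 11.01, 4.66 and 8.54 with it, with 30 min mouse 2 below the clean air mice. Hic1, a repressor gene on the other side of the hairpins at 75164565 to 75169519 on the minus strand, had 2.42, 1.78 and 1.4 RPKM in the clean air group and 1.83, 0.98 and 1.66 in the 30 min group. Another 1193 bases of Ovca2 overlap Dph1, on the same strand. The sources used here do not give the counting rule or say whether it used strand. Reads over the bases that Ovca2 shares with Dph1 and with 1700016P03Rik, which was not among the tested genes, therefore cannot be told apart.

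**Figure D5:**
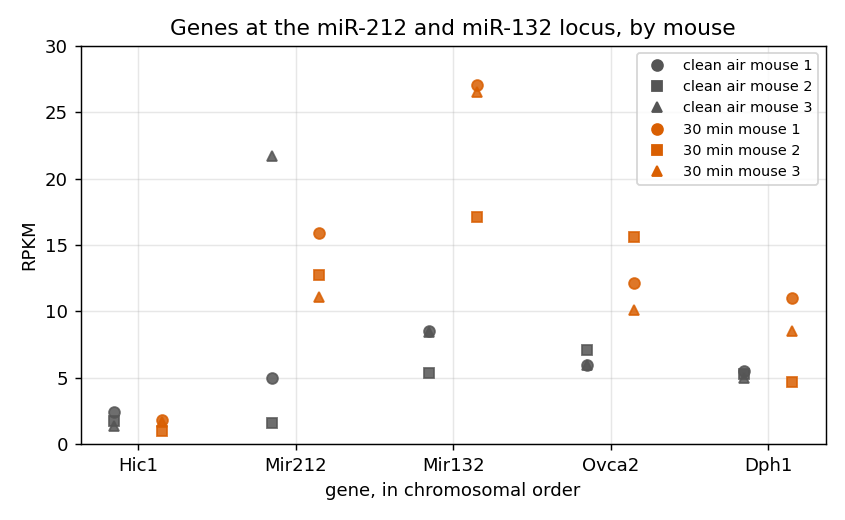
RPKM of the genes around the miR-212 and miR-132 hairpins in chromosomal order, by mouse, grey for clean air and orange for 30 min, 1 shape per mouse number. Mir132 and Ovca2 are the genes in which all 3 orange markers lie above all 3 grey markers, and the Mir212 triangle of clean air mouse 3 at 21.72 RPKM is its highest value.

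Markers of other cell types moved between the libraries as well. Endothelial markers were above clean air in 14 of 16 tested, with a median of 0.34 and the list at 0.14, 0.07 and -0.13 in clean air mice and 0.34, 0.14 and 0.17 in 30 min mice, which overlapped. The distance from all genes was 0.26, and 0.11 without clean air mouse 3. Kdr, the VEGF receptor of blood vessels, measured 2.87, 2.71 and 1.04 RPKM in clean air against 4.1, 2.89 and 4.25 with odor, while the tight junction gene Cldn5 went the other way, at 76.06, 77.01 and 86.88 against 68.35, 41.38 and 70.32. Astrocyte markers were above clean air in 13 of 15 tested, with a median of 0.21 and overlapping mice, and the distance from all genes was 0.13, and 0.04 without clean air mouse 2. Aqp4, the water channel of astrocyte endfeet, read 24.21, 16.45 and 11.96 RPKM in clean air mice and 29.46, 29.36 and 29.38 in exposed mice.

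Red blood cell markers differed between the libraries. The 2 tested of the 7 listed were Hbb-b1, beta globin, at 141.7, 76.2 and 36.96 RPKM in clean air against 147.92, 192.91 and 171.17 with odor, and Alas2, of heme synthesis, at 3.12, 1.22 and 1.04 and then 4.74, 3.9 and 2.73. Clean air mouse 3, the highest of its group for most early genes, was the lowest for both. Olfactory sensory neuron markers were above clean air in 8 of 8 tested, with a median of 0.33 and overlapping mice, and Omp itself stood at 112.55, 79.85 and 98.9 RPKM without odor and at 109.28, 106.93 and 109.9 with it. Mitral and tufted cell markers were above in 6 of 10 with a median of 0.04, granule and other GABAergic interneuron markers in 7 of 9 with 0.16, microglia markers in 12 of 16 with 0.11, and oligodendrocyte markers in 8 of 14 with 0.03. The part of these markers in the list differences was not tested.

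Transcripts of the mitochondrial genome differed more between mice within each group than between the groups. All 5 tested were above clean air, with a median of 0.40, but relative to all genes they lay at -0.56, 1.30 and -0.75 in clean air mice and -0.32, 1.18 and 0.09 in 30 min mice. Mouse 2 was the highest in both groups, the same number that stood highest for the excess of AT-rich genes. None of the 5 had groups that did not overlap.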

How the data were processed

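Polyadenylated RNA of the olfactory bulb was sequenced from 9 mice, 3 per group. The deposited table holds RPKM, made by the authors, with 2 decimals for 27497 Ensembl gene identifiers. Reads were aligned with Bowtie to mm9, per the submitters' processing notes. The sources used here do not give the version of Bowtie, the counting rule, the annotation or whether strand was used. Values were used without further scaling.

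Depth was recovered from RNAs under 200 nt, whose RPKM step by the value of 1 read (84.7% to 92.9% of values whole within 0.05, with lengths 34 nt under the annotated ones). The precision is that of counting only. The 12780 genes averaging 1 RPKM or more entered limma 3.58.1 (lmFit, eBayes with a mean-variance trend; R 4.3.3) as log2(RPKM + 0.5), in 1 fit to all 9 libraries with 6 residual degrees of freedom (median 10.7 after moderation). The contrast was 30 min minus clean air. The fit was tested on simulated data. No set test was run.

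Deviations from the group means correlated between mice of the same number in the 2 groups, at 0.301, 0.383 and 0.147 for numbers 1, 2 and 3, and the numbers were therefore taken as pairs in a fit with the number as a block. The labels only number the mice, so the pairing rests on the data. The headers of the deposited columns number the libraries otherwise than the sample titles. By those headers the mice paired here as 2 and as 3 do not share a number. Results with the block hold only under this pairing. Alternatives were other pseudocounts, filters, scalings and fits, each library left out, the block, and a correction of each library for transcript GC content and length (natural splines with 5 degrees of freedom), which was chosen after seeing the data.

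Names, transcript properties and spans came from GENCODE M21, and promoter and microRNA sequences from RefSeq, both on GRCm38, matched by identifier or symbol, since no mm9 sequence was used here. Named genes were those called, the 12 uncalled genes per direction with the smallest p, separated groups and an average of 2 RPKM or more, and for each list its called members, up to 4 members with the smallest p and its most abundant member by mean over the 9 libraries. A few genes that this rule names are not reported here. Members and lists were chosen with earlier results of these data known.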

Additional observations from a re-analysis of the deposited data

How the results depend on the processing

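Between 13 and 22 genes were called over the alternatives to the 18 reported: 13 to 19 when a mouse was left out, 13 with only the clean air and 30 min libraries, 15 with libraries centred on their median, 16 with quantile normalization, 22 with the mouse number as a block, and 20 after the GC and length correction. The count of genes with an unadjusted p under 0.05 was less stable. It was 756 as reported, 1396 with the replicate block, and 391 (without 30 min mouse 2) to 1268 (without clean air mouse 1) when a mouse was left out, and the cause was not tested. Genes with separated groups numbered 1454 as reported and 1024 to 1836 over the alternatives. For 485 genes named or on lists, 9552 of 9616 values kept their side of the threshold, 49 lost a call and 15 gained one. Direction was compared only where a gene was called in the main or the alternative fit, and there 0 reversed. Uncalled genes could change sign, such as mt-Nd6, with log2 differences of -0.25 to 1.17 over the settings. Of 1960 list medians 110 moved by more than their spread between mice. With 3 mice per group, the smallest rise called was 2.18-fold, and values of short RNAs rested on few reads.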

Other observations

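Neither matrix nor nuclear transport genes stood apart as a list. Of the collagen, laminin and integrin genes 24 of 52 tested were above clean air, with a median of -0.05 and overlapping mice. Col7a1, of anchoring fibrils, had 2.57, 4.13 and 4.74 RPKM in the clean air group and 2.26, 1.03 and 1.46 in the 30 min group. Itga6, a laminin receptor subunit, measured 5.46, 4.5 and 4.12 RPKM in clean air against 7.08, 7.15 and 7.12 with odor. The groups of both were separate and in opposite directions. Nuclear pore and nuclear transport genes were above clean air in 33 of 40 tested, with a median of 0.18, and after the GC and length correction the median was 0.07, the same as that of all genes. Gtl2 (Meg3), a long noncoding RNA of neurons, read 491.41, 589.26 and 514.95 RPKM in clean air mice and 484.52, 322.15 and 291.36 in exposed mice, with 30 min mouse 1 close to the clean air mice.

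An unnamed gene of the table, ENSMUSG00000076004, picked out after its values were seen, stood at 140.37, 74.69 and 85.39 RPKM without odor and at 52.21, 23.74 and 26.43 with it. Its groups were separate, and its differences between mice of the same number were -1.42, -1.63 and -1.67. It was not called in the main fit, and was called with the mouse number as a block (limma adjusted p = 0.00489). No label states that pairing.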
